A study of Mus musculus with 20 samples.

Results

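The numbered zinc finger protein genes of the mouse are those whose symbol is Zfp followed by digits alone. The deposited count table held 333 such genes, and the 204 that averaged 50 counts or more per mouse are described here, out of 21078 genes in all. A further 99 were tested for dose at a mean count between 5 and 50, so that 303 of the 333 entered the tests. Most proteins of this family carry C2H2 zinc fingers, short folds in which a pair of cysteines and a pair of histidines hold a zinc ion and whose helices read DNA bases. Many also carry a KRAB box, which recruits the corepressor Trim28 and, with it, histone methylation and silencing, above all at transposable elements. Such genes lie in clusters that arose by duplication and are expressed at low levels in most adult tissues.

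RNA was sequenced from the thoracic aorta of 20 wildtype male C57BL/6 mice of 10 to 12 weeks. Of these, 10 received whole-body proton radiation and 10 received gamma radiation, at 0, 5, 10, 25, 50, 75, 100, 125, 150 and 200 cGy with 1 mouse at each dose of each type, and tissue was taken 4 h later. The mice at 0 cGy were sham-irradiated. The question was how transcription in the vessel wall changes with dose and whether it does so alike for the 2 kinds of radiation. Whole aorta mixes cell types, and in such a sample fewer cells of a type and less RNA per cell cannot be told apart. The smooth muscle markers, among them Myh11 and Acta2, summed to between 165116 and 332585 counts in a mouse, and the lymphocyte markers to between 0 and 43.

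Each library was resampled by the authors to a common depth and held between 6051657 and 6058006 counts, of which 3 counts make up 4.96e-05%, a detection limit that covers counting error only. The proton mouse at 75 cGy stood apart, with 14394 summed counts of brown fat markers against at most 5202 in the other 19 mice, and 38705 of adipocyte markers against at most 14846. A second difference followed dose. The deviations of genes from their own means were correlated with transcript GC content, over 9702 genes averaging 50 counts or more, at between -0.40 and -0.35 in the 4 mice at 150 or 200 cGy and between -0.02 and 0.28 in the 16 mice at lower doses. Genes are not independent replicates in such a correlation, and dose and the property of these libraries cannot be told apart at 150 and 200 cGy. The results on dose are therefore given also after a correction of each library for the GC content and length of the transcripts.

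The coding stretch of the first finger of the common spacing (C, 2 residues, C, 12 residues, H, 3 residues, H) is shown for 3 members that were higher and 1 that was lower at 150 and 200 cGy, because these had the smallest p-values in each direction. The sequences are from GENCODE M1 on mouse build NCBIM37 (mm9), written 5′ to 3′ on the coding strand, and capitals mark the codons of the zinc-binding cysteines and histidines.
Zfp445: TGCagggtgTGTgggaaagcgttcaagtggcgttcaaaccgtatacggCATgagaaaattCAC
Zfp809: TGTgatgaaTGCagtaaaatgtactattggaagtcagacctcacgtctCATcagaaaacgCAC
Zfp568: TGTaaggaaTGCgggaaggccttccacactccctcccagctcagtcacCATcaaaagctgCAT
Zfp423: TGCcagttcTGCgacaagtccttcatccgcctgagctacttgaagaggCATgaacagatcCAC
Each stretch is 63 bases and lies in a single coding exon. That of Zfp445 is at chr9:122762517-122762579 on the minus strand, that of Zfp809 at chr9:22043208-22043270 on the plus strand, that of Zfp568 at chr7:30807743-30807805 on the plus strand and that of Zfp423 at chr8:90307110-90307172 on the minus strand. GC made up 49.2% of the bases in Zfp445, 41.3% in Zfp809, 54.0% in Zfp568 and 52.4% in Zfp423.

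In the translated coding sequences, a C2H2 finger was counted as C, 2 to 4 residues, C, 12 residues, H, 2 to 6 residues and H. The members had a median of 9 fingers and at most 36, in Zfp142. No such finger was found in 7 members, which included Zfp36, whose fingers bind RNA and are of another type. A KRAB motif, a match to short patterns of the KRAB A box that can miss divergent boxes, was found in 84 members and not in 120. The KRAB members had a median of 12 fingers and a median transcript GC content of 42.1%, and the others had 7 fingers and 51.1%. The members as a whole had a median GC content of 46.7%, between 34.4% and 68.3%, beside 50.4% for all 13124 genes tested. They lay on 20 chromosomes, with 45 on chromosome 7, 25 on chromosome 17, 17 on chromosome 8 and 14 on chromosome 9. How reads that match near-identical copies were assigned is not given in the sources used here, so values of genes in these clusters are less certain than those of single genes.

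The members were expressed at low levels. Their mean count had a median of 122 and reached 1062.5 for Zfp106, an RNA-binding protein needed for motor function. Per kilobase of transcript the median was 35.8 counts, against 77.7 over all 9817 genes averaging 50 counts or more. The highest level per kilobase was that of Zfp207, a partner of the mitotic checkpoint protein Bub3, at 399 counts, followed by Zfp36, the mRNA decay factor tristetraprolin, at 218 and Zfp707 at 185. The members just above the minimum were Zfp217, with a mean count of 50.35, and Zfp472, with 50.5. Zfp235, with 49.35, and Zfp677, with 49.0, lay just below it. Together the members made up between 0.549% and 0.620% of the counts in the 16 mice at 0 to 125 cGy and between 0.624% and 0.663% in the 4 mice at 150 or 200 cGy, so the 2 ranges did not overlap. These shares were not corrected for GC content and length.

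The mean of log2(count + 1) over the members was taken in each mouse, as a description that no test accompanies. In proton mice it was 7.10 at 0, 7.11 at 5, 7.08 at 10, 7.02 at 25, 7.06 at 50, 6.95 at 75, 7.07 at 100 and 7.09 at 125 cGy, and then 7.13 at 150 and 7.20 at 200 cGy. In gamma mice it was 7.04 at 0, 7.05 at 5, 7.06 at 10, 7.09 at 25, 7.03 at 50, 7.09 at 75, 7.03 at 100 and 7.06 at 125 cGy, and then 7.22 at 150 and 7.16 at 200 cGy. The 4 mice at 150 or 200 cGy were above the other 16, and below 150 cGy the values moved up and down without order. After the GC and length correction the ranges overlapped, at 7.09 to 7.20 in the 4 mice and 6.91 to 7.12 in the 16.

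**Figure D1:**
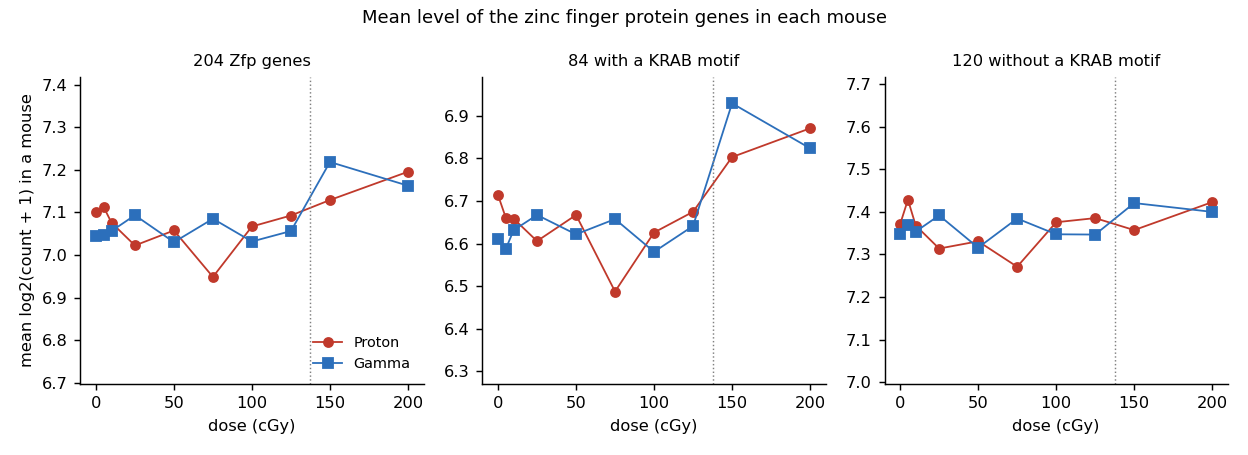
Mean log2(count + 1) of the 204 Zfp genes, of the 84 with a KRAB motif and of the 120 without one (y axes of equal span) against dose in cGy, 1 point per mouse, proton in red circles and gamma in blue squares. Right of the dotted line, between 125 and 150 cGy, the 4 points of the first 2 panels are above all others, and in the last panel they lie within the range of the lower doses.

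A straight line over all doses rose by 0.04 per 100 cGy in proton mice (SE 0.03, n = 10) and by 0.06 in gamma mice (SE 0.02, n = 10). These slopes were 0.015 (SE 0.03) and 0.023 (SE 0.02) after the GC and length correction. Over 0 to 125 cGy alone the slopes were -0.03 (SE 0.04, n = 8) and -0.0031 (SE 0.02, n = 8). The mean of all genes at or above the member minimum had slopes of 0.0004 (SE 0.02) in proton and 0.03 (SE 0.02) in gamma mice over all doses, and of 0.03 (SE 0.04) and 0.05 (SE 0.04) over 0 to 125 cGy. The members' mean at 150 cGy exceeded that at 125 cGy by 0.04 in proton and by 0.16 in gamma mice. The SD of the mice around the line over 0 to 125 cGy was 0.06 for proton and 0.02 for gamma, so the proton difference was within that spread and the gamma difference was beyond it. With the median over members in place of the mean, the gamma difference was 0.03 with an SD of 0.05, within the spread. After the GC and length correction the proton difference was -0.02 and the gamma difference 0.14, with SDs of 0.07 and 0.03. The mean at 150 and 200 less that at 100 and 125 cGy was 0.08 in proton and 0.15 in gamma mice, beside -0.0007 and -0.03 for all genes at or above that minimum. After the GC and length correction the members' values were 0.01 and 0.11. The proton mouse at 75 cGy had the lowest value, and without it the other 15 mice at 0 to 125 cGy lay between 7.02 and 7.11.

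The members with and without a KRAB motif were also averaged apart. The KRAB mean ranged from 6.80 to 6.93 in the 4 mice at 150 or 200 cGy, and from 6.49 to 6.71 with a median of 6.64 in the 16 at lower doses. The mean of the members without a KRAB motif was between 7.36 and 7.42 at 150 or 200 cGy, inside the range of 7.27 to 7.43 of the other 16. Neither mean was corrected for GC content and length.

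The high-dose difference of each gene was tested between the 4 mice at 150 or 200 cGy and the 4 at 100 or 125 cGy, with radiation type as a covariate, by edgeR's quasi-likelihood test with Benjamini-Hochberg adjustment over 13124 genes and a threshold of 0.1. Of the 204 members, 55 were higher (27.0%) and 9 were lower (4.41%). Over all genes tested, 12.1% were higher and 7.79% were lower. Over the 9817 genes at or above the member minimum these shares were 14.9% and 9.57%. The median log2 fold change was 0.12 over the members and -0.02 over all genes tested, and 139 members were above 0. Of the 13124 genes tested, 6189 were above 0. Of the 99 tested genes of the family below the member minimum, 15 were higher (15.2%) and 1 was lower (1.01%), with a median of 0.25. After the GC and length correction 6 of these 99 were higher and 0 were lower, with a median of 0.13. The counts of the 4 mice at 150 or 200 cGy were all above those of the 4 at 100 or 125 cGy for 48 members and all below them for 14, where the shares over all genes tested were 11.3% and 9.15%. Among the 55 that rose, the median log2 change was 0.41 and the lowest was 0.21, and 3 rose at least 2-fold, namely Zfp445, Zfp809 and Zfp612.

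Zfp445 (ENSMUSG00000047036, chr9:122761032-122771246, 12 fingers and a KRAB motif), which helps to keep genomic imprints silent, had the largest difference. Its count was 268 and 277 in the proton mice at 150 and 200 cGy and 293 and 271 in the gamma mice. It was 68 and 59 in the proton mice at 100 and 125 cGy and 68 and 56 in the gamma mice, and over all 16 mice at 0 to 125 cGy it ranged from 56 to 92 with a median of 68. The 4 highest-dose mice were far above all others and close to each other. The log2 fold change was 2.16 (SE 0.10, adjusted p = 5.46e-06, edgeR's quasi-likelihood test), or 4.48-fold, and 2.10 after the GC and length correction (adjusted p = 5.99e-06). It was 2.13 in proton mice and 2.20 in gamma mice fitted by themselves.

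Zfp809 (ENSMUSG00000057982, chr9:22030274-22047641, 7 fingers and a KRAB motif) silences integrated murine leukaemia proviruses. It had 319 and 273 counts in the proton mice at 150 and 200 cGy and 281 and 252 in the gamma mice, against 140 and 124, and 125 and 129, at 100 and 125 cGy. The 16 mice at lower doses ranged from 70 to 178 with a median of 123.5, so the groups did not overlap. The log2 fold change was 1.14 (SE 0.09, adjusted p = 0.000168 by edgeR), and 1.04 after correction (adjusted p = 0.000277).

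Zfp612 (ENSMUSG00000044676, chr8:112603664-112614081, 16 fingers and a KRAB motif) had 99, 94, 116 and 103 counts in the 4 mice at 150 or 200 cGy and 56, 51, 49 and 44 at 100 or 125 cGy, with a range of 44 to 83 at 0 to 125 cGy. It is outside the rule for named genes and was chosen after its values were seen. Its log2 fold change was 1.06 (SE 0.13, adjusted p = 0.00115 by edgeR) and 1.11 after correction. Zfp568 (ENSMUSG00000074221, chr7:30768974-30813301, 11 fingers and a KRAB motif), which represses a placental transcript of Igf2 in the embryo, had 388 and 428 counts in proton and 441 and 457 in gamma mice at 150 and 200 cGy, above the range of 176 to 313 of the 16 other mice. Its log2 fold change was 0.78 (SE 0.09, adjusted p = 0.00103 by edgeR), and 0.51 after correction (adjusted p = 0.0192).

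Zfp423 (ENSMUSG00000045333, chr8:90185709-90483494, 28 fingers and no KRAB motif), a regulator of the commitment of cells to the fat lineage, had the largest fall. Its count was 115 and 86 in proton and 90 and 71 in gamma mice at 150 and 200 cGy, against 185 and 191, and 156 and 134, at 100 and 125 cGy. The lower doses ranged from 111 to 224 with a median of 165, which overlapped with the proton mouse at 150 cGy alone. The log2 fold change was -0.85 (SE 0.12, adjusted p = 0.00207 by edgeR), and -0.75 after correction (adjusted p = 0.0145). Summed fibroblast markers (Dcn, Lum, Pdgfra and Col1a1) were between 9204 and 17094 counts in the 4 mice at 150 or 200 cGy and between 17000 and 30256 in the 4 at 100 or 125 cGy, and 1 of the 4 fell past the threshold. The marker sums were not corrected for GC content and length. None of the fibroblast markers was at 0 in all mice, and their part in the fall of Zfp423 was not tested.

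**Figure D2:**
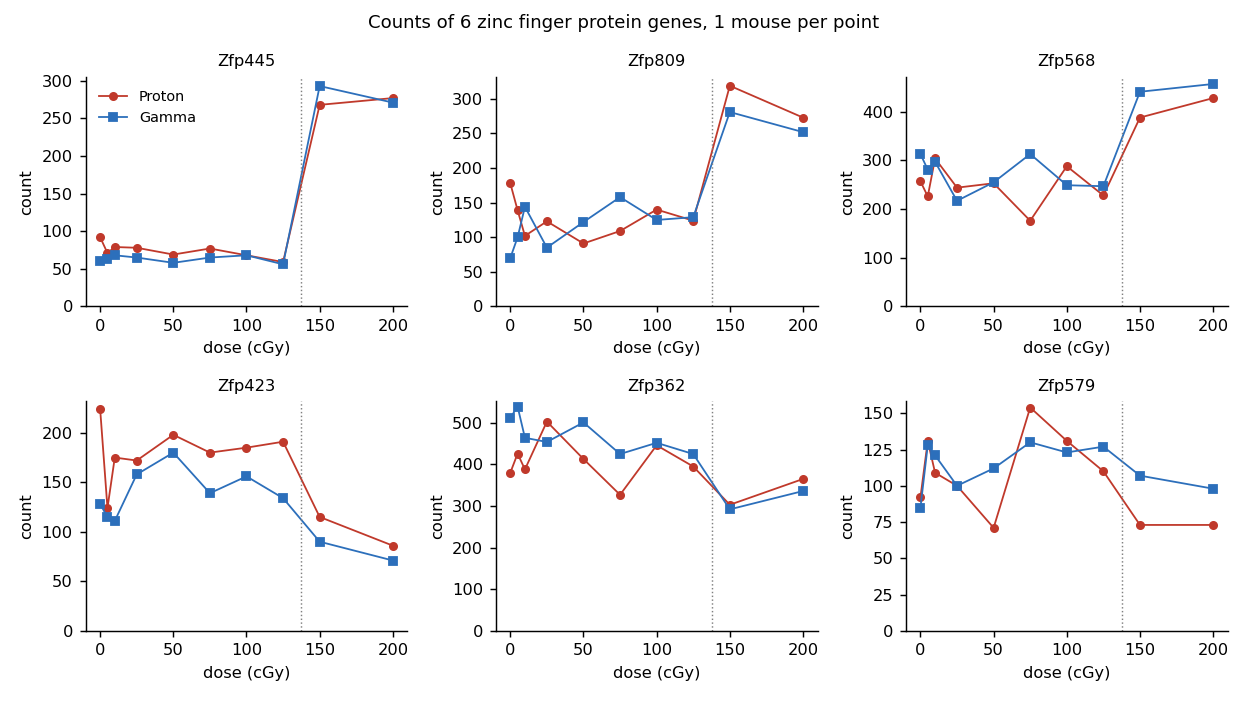
Counts of Zfp445, Zfp809, Zfp568, Zfp423, Zfp362 and Zfp579 (y axes from 0) against dose in cGy, 1 mouse per point, proton in red circles and gamma in blue squares, with a dotted line between 125 and 150 cGy. Zfp445 lies between 56 and 92 left of the line and between 268 and 293 right of it, and the falls of Zfp362 and Zfp579 are smaller than that of Zfp423.

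The other members that fell were Zfp362, Zfp384, Zfp553, Zfp574, Zfp579, Zfp598, Zfp703 and Zfp865, and like Zfp423 they had no KRAB motif. Zfp362 had 303 and 365 counts in proton and 292 and 336 in gamma mice at 150 and 200 cGy, against a mean of 430 ± 25.7 (SD, n = 4) at 100 and 125 cGy, and a log2 fold change of -0.38 (SE 0.09, adjusted p = 0.02 by edgeR). Zfp579 had a mean of 87.8 ± 17.4 (SD, n = 4) against 123 ± 9.11 (SD, n = 4), with 107 and 98 in the gamma mice and 73 in each of the proton mice. Neither passed after correction, at -0.14 and -0.15. Zfp598, a ubiquitin ligase that senses collided ribosomes, fell by 0.28, and Zfp703, a corepressor of the NET family, by 0.53 on the log2 scale, and neither passed after correction.

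Of 43 genes of the family listed for a known role, 35 were members, and 9 of these rose and 3 fell at the high doses, where 12.1% and 7.79% of all genes tested were called. Zfp281, a transcription factor of pluripotent cells, had 621 and 532 counts in proton and 580 and 589 in gamma mice at 150 and 200 cGy, all above the range of 255 to 443 of the other 16, and a log2 fold change of 0.67 (SE 0.11, adjusted p = 0.00473 by edgeR). Zfp106 rose by 0.45, the promoter-binding factor Zfp148 by 0.43, the SUMO ligase Zfp451 by 0.39, Zfp110, a partner of the neurotrophin receptor p75, by 0.30, and Zfp207 by 0.21. Zfp800 rose by 0.70. Of these, Zfp281 passed after the correction, with a log2 fold change of 0.46, as did Zfp568 and Zfp809. The others did not pass, with Zfp800 at 0.50, Zfp110 at 0.22, Zfp207 at 0.15, Zfp106 at 0.10, Zfp148 at -0.0023 and Zfp451 at -0.10. Members with roles in fat cells other than Zfp423 did not pass: Zfp516, a cofactor of brown fat genes, was at 0.31 (adjusted p = 0.141 by edgeR) and Zfp521, an antagonist of Zfp423, at -0.17 (adjusted p = 0.749). Zfp36 was at -0.19 (adjusted p = 0.165). Among the 6 members found in the gene lists of the study's supplement, which were chosen on these same mice and are not independent evidence, Zfp91, a ubiquitin ligase, rose by 0.22, Zfp365, which protects genome stability, by 0.26 and Zfp719 by 0.36. None passed after the GC and length correction, at 0.04, 0.14 and 0.18. Zfp365 also missed the threshold with DESeq2, without TMM and with either other count minimum, and Zfp719 with DESeq2, without TMM and with no minimum. Zfp180, Zfp410 and Zfp688 did not pass, with log2 differences of 0.18, 0.07 and -0.16.

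The size of the high-dose difference followed the base composition of the transcripts. Over the 204 members, Pearson's r between the log2 fold change and GC content was -0.52, a description across genes that share libraries, beside -0.49 over the 9702 genes at or above the member minimum. Of the 58 members with at most 42% GC, 24 rose (41.4%) and none fell, with a median of 0.24, and of the 934 genes at or above the member minimum in that range 37.7% rose. Over 42% to 46% the median of 36 members was 0.18, over 46% to 50% that of 30 members was 0.31 with 15 rising (50%, against 19.5% of all genes there), over 50% to 55% that of 36 members was 0.07, and above 55% that of 44 members was -0.18, with 1 rising and 8 falling (18.2%, against 27.4% of all genes there). The medians of all genes at or above the member minimum in the same ranges were 0.19, 0.12, 0.07, -0.04 and -0.20. Members and other genes thus followed the same order of the GC ranges, except that the members' median was highest at 46% to 50%. The members that rose had a median GC content of 43.6%, and the 9 that fell were between 53.4% and 64.1%.

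After the GC and length correction 10 members were higher and 4 were lower, where 2.85% and 2.23% of all genes tested were called. The median over the members was then 0.06, that over all genes tested -0.02, and r between the corrected change and GC content was -0.05. That r is small largely by construction, because the correction removes each library's trend with GC content. Of the 64 members called before, 10 were called after it, 9 higher and 1 lower. Those that were higher were Zfp26, Zfp275, Zfp281, Zfp317, Zfp445, Zfp568, Zfp612, Zfp687 and Zfp809, and the one that was lower was Zfp423. Zfp317 and Zfp26, which have KRAB motifs and lie on chromosome 9 like Zfp445 and Zfp809, had log2 fold changes of 0.70 and 0.87 before and 0.64 and 0.53 after it. Zfp687, with 56.5% GC, rose from 0.30 to 0.40. Zfp251 (0.32), Zfp609 (-0.42), Zfp652 (-0.27) and Zfp706 (-0.28) passed the threshold after correction alone. Zfp652 was 0.13 before it, and so had opposite signs with and without it.

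**Figure D3:**
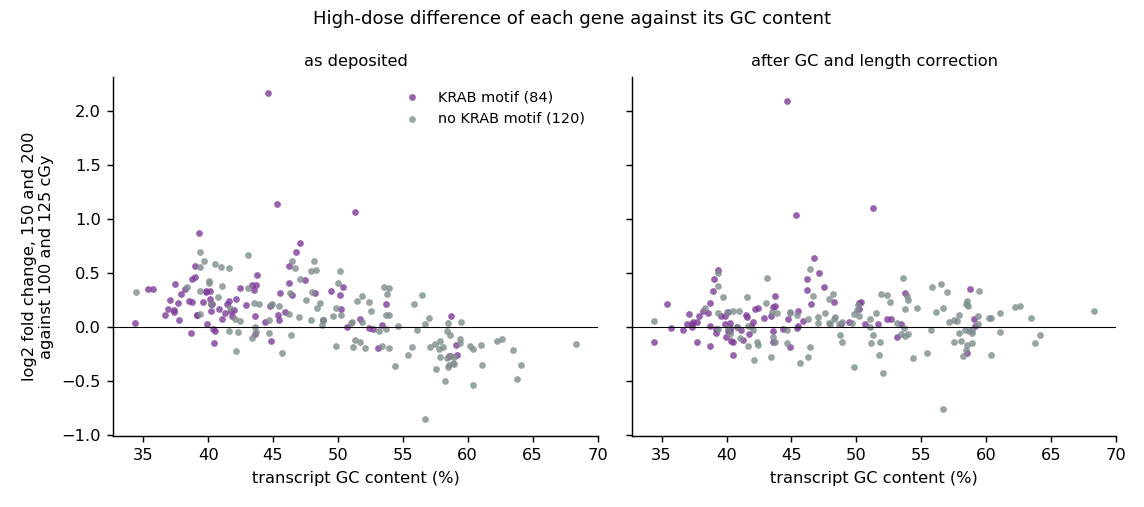
Log2 fold change of each of the 204 genes between the mice at 150 and 200 and those at 100 and 125 cGy against the GC content of its transcript in percent, for the deposited counts (left) and after the GC and length correction (right), with KRAB genes in purple and the others in grey. The slope toward lower values at high GC on the left (r = -0.52) is nearly absent on the right (r = -0.05), where Zfp445 remains at 2.10. The correction removes each library's trend with GC content, fitted with these genes included, so the small r is largely built in.

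Of the 84 KRAB members 26 rose and none fell, with a median log2 fold change of 0.21, and of the 120 others 29 rose and 9 fell, with a median of 0.05. After the correction 7 KRAB members were higher and none was lower, and 3 of the others were higher and 4 were lower, with medians of 0.06 and 0.05. The difference between the 2 kinds was not tested. Among members with at most 42% GC, 11 of 41 with a KRAB motif and 13 of 17 others rose. The order was the other way over 42% to 46%, with 7 of 19 and 3 of 17, over 46% to 50%, with 6 of 9 and 9 of 21, and over 50% to 55%, with 2 of 11 and 3 of 25. Above 55% GC there were 4 members with a KRAB motif, of which 0 rose and 0 fell. Of the 40 others in that range 1 rose and 8 fell. Members grouped by fingers had medians of 0.04 for 0 to 4 fingers (39 members), 0.07 for 5 to 9 (66), 0.17 for 10 to 14 (64) and 0.23 for 15 or more (35), and their median GC content fell from 51.0% to 48.8%, 44.2% and 40.5%. After the correction the 4 medians were 0.03, 0.08, 0.06 and 0.03. On chromosome 9, 7 of 14 members rose and 4 were higher after correction, and on chromosome 7, 9 of 45 rose and 1 was higher after correction. On chromosome 17, 5 of 25 rose, and on chromosome 8, 3 of 17, with 0 and 1 higher after correction. Over all genes tested 12.1% rose and 2.85% were higher after correction. Members that fell numbered 4 on chromosome 7, 1 on chromosome 17, 2 on chromosome 8 and 0 on chromosome 9. After correction 1 was lower on chromosome 8, 1 on chromosome 9 and 0 on chromosomes 7 and 17. The shares of all genes tested that were lower were 7.79% before and 2.23% after correction.

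The 2 radiation types, which share no mice, were also fitted separately, 2 mice against 2. The median high-dose difference of the members was 0.13 in proton and 0.15 in gamma mice, beside 0.01 and -0.02 over all genes tested. Differences of the members were above 0 in both types for 112 and below 0 in both for 40 of the 204, counts not taken over all genes. The libraries at 150 or 200 cGy of both types shared the negative correlation with GC content (-0.40 to -0.35). The separate fits were not corrected for it. Across members, Pearson's r between the types was 0.75, and across all genes at or above the same minimum it was 0.50, descriptions over genes that share libraries. In proton mice alone 12 members were higher and 2 were lower, where 3.92% and 1.62% of all genes tested were called, and in gamma mice alone 8 and 1, where 2.33% and 0.312% were called.

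**Figure D4:**
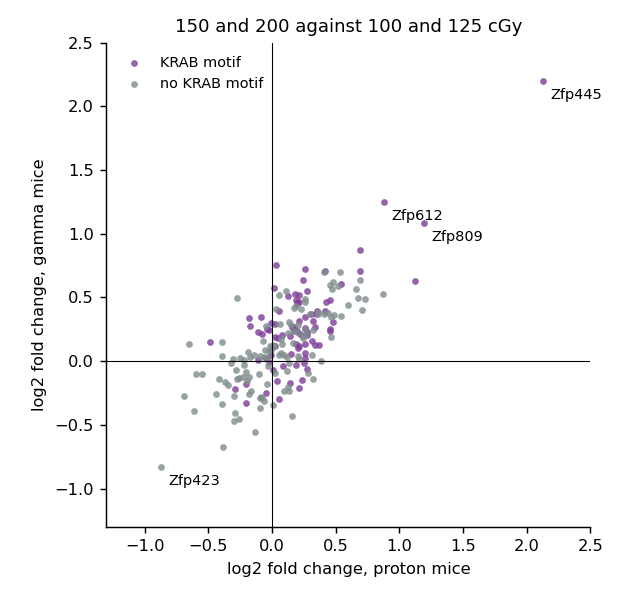
Log2 fold change between 150 and 200 and 100 and 125 cGy in gamma mice (y axis) against that in proton mice (x axis), 1 point for each of the 204 genes, with KRAB genes in purple and the others in grey. Zfp445 stands apart at 2.13 and 2.20, and 112 genes lie above 0 on each axis.

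The slope on dose was tested over all 10 doses, per 100 cGy, with an intercept and slope for each radiation type in edgeR. In proton mice 1 member rose and none fell, where 1.6% and 0.16% of all genes tested were called. DESeq2 called 3 and 0. At an unadjusted p under 0.05, 27 members rose and 4 fell by edgeR, 31 of the 204, beside 1745 of the 13124 genes tested. The member called by edgeR was Zfp180 (ENSMUSG00000057101), with counts from 166 to 238 and a median of 190.5 over the 10 proton mice, the highest being 231 and 238 at 150 and 200 cGy. Its slope was 0.22 (SE 0.05, adjusted p = 0.0662 by edgeR), and in gamma mice it was 0.14 (adjusted p = 0.177). After the GC and length correction the slope in proton mice was 0.19 and did not pass. Without the proton mouse at 75 cGy 8 members rose.

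In gamma mice 10 members rose and 3 fell, where 5.44% and 2.21% of all genes tested were called. Zfp445 had the steepest slope at 1.13 (SE 0.26, adjusted p = 0.0271 by edgeR), although its 8 gamma mice at 0 to 125 cGy lay between 56 and 68. Zfp809 was at 0.74 (adjusted p = 0.0504), Zfp281 at 0.44 (adjusted p = 0.0603), Zfp318, which controls the choice of IgD transcripts in B cells, at 0.30 (adjusted p = 0.0645) and Zfp106 at 0.23 (adjusted p = 0.0858), all by edgeR. Zfp395 fell by 0.44, Zfp362 by 0.34 and Zfp628 by 0.28 per 100 cGy. The correction left these at -0.40, -0.23 and -0.15, none of which passed. After it 2 members were higher, Zfp445 and Zfp687, and 2 were lower, Zfp609 and Zfp706. Without the gamma mouse at 150 or that at 200 cGy no member was called in either direction.

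Over 0 to 125 cGy no member was called by edgeR in proton or in gamma mice, where 0.107% and 0.259% of all genes tested were called, and DESeq2 called none. At an unadjusted p under 0.05, 4 members rose and 7 fell in proton mice, and 4 rose and 11 fell in gamma mice. Together these were 5.39% and 7.35% of the members, beside 4.57% and 5.96% of all genes tested. DESeq2 gave 7 and 5 members at that level. The median slope of the members was -0.05 in proton and -0.03 in gamma mice, beside 0.03 and -0.0024 over all genes tested. Slopes were above 0 for 76 and 88 of the 204, beside 7513 and 6497 of the 13124 genes tested. Over all doses the medians of the members had been 0.05 in each type, and after the GC and length correction 0.015 in proton and 0.0059 in gamma mice. Before the correction 133 and 137 members were above 0 over all doses, beside 6635 and 7016 of the 13124 genes tested. The corrected medians over 0 to 125 cGy were -0.04 in proton and -0.06 in gamma mice, beside 0.02 and -0.02 over all genes tested. With and without the correction the medians were thus above 0 with the 2 highest doses and below 0 without them.

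The smallest p-values over 0 to 125 cGy in proton mice among members with positive slopes were those of Zfp410, Zfp282 and Zfp771, at 0.23, 0.29 and 0.53 per 100 cGy, and among those with negative slopes those of Zfp110, Zfp148 and Zfp445, at -0.21, -0.16 and -0.33. In gamma mice they were Zfp865, Zfp747 and Zfp846, at 0.26, 0.37 and 0.35, and Zfp446, Zfp956 and Zfp282, at -0.55, -0.44 and -0.31. The lowest adjusted p was 0.983 in proton and 0.398, for Zfp446, in gamma mice. Zfp282 thus had slopes of opposite sign in the 2 types. Zfp445 had a negative slope below 150 cGy in each type, -0.33 (SE 0.12) and -0.10 (SE 0.12), while its slopes over all doses were 0.92 and 1.13. Zfp410, an activator of the remodeller gene Chd4, had counts from 157 to 228 in the 8 proton mice and from 171 to 190 in the 8 gamma mice.

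**Figure D5:**
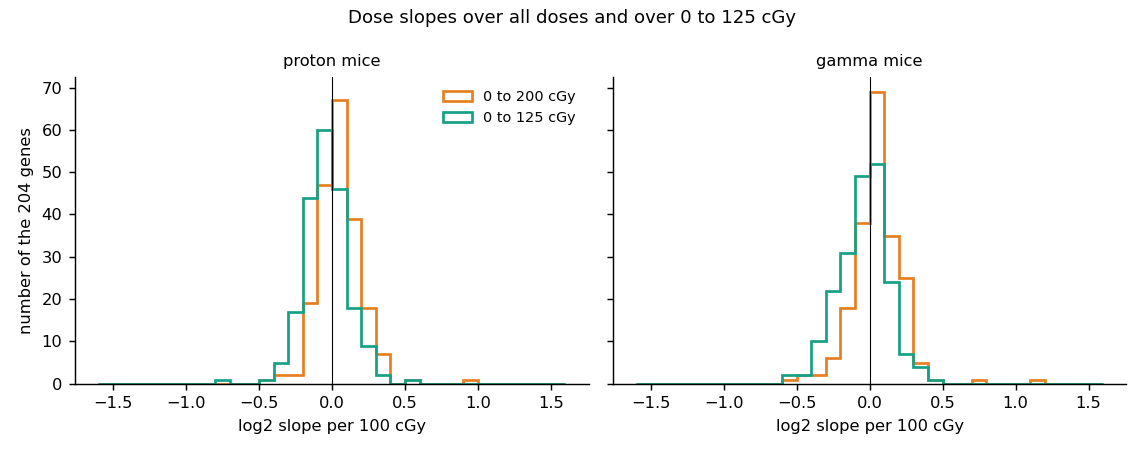
Number of the 204 genes (y axis) in bins of the log2 slope per 100 cGy (x axis), for proton mice (left) and gamma mice (right), over all doses in orange and over 0 to 125 cGy in green. The orange outlines are centred slightly right of 0, with medians of 0.05, and the green ones slightly left of it, and single genes beyond 0.9 in orange are Zfp445.

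A difference between the proton and the gamma slope was called by edgeR for no member and for none of the 13124 genes tested (0%), and DESeq2 also called none. At an unadjusted p under 0.05 there was 1 member by edgeR and none by DESeq2, and 254 and 240 of all genes. The difference, proton less gamma, ranged from -0.31 to 0.30 per 100 cGy over the members. The members with the smallest p were Zfp942 at -0.21 (SE 0.10), Zfp629 at -0.16 (SE 0.08) and Zfp410 at 0.15 (SE 0.08). Across the members, Pearson's r between the proton and gamma slopes was 0.79, and 110 of the 204 were above 0 in each type. Neither value was taken over all genes, and neither was corrected for GC content and length. Zfp445 had the highest slope in both types, at 0.92 and 1.13. The median slopes after the correction were 0.015 in proton and 0.0059 in gamma mice.

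The partners through which KRAB proteins repress were examined as a list of 33 corepressor genes, all of them tested. At the high doses 7 were higher and 4 were lower, with a median log2 fold change of 0.0043. These are 21.2% and 12.1% of the list, where 12.1% and 7.79% of all genes tested were called. Those that were higher were Gatad2b at 1.41, Atrx at 0.54, Trim33 at 0.47, Cbx5 at 0.33, Dnmt3a at 0.32, Morc3 at 0.31 and Rcor1 at 0.29. Trim28, which KRAB boxes bind directly, was lower at -0.35, as were Mbd3 at -0.36, Mta1 at -0.33 and Ehmt2 at -0.30. After the GC and length correction Gatad2b, a subunit of the NuRD complex, was the one gene called, at 1.41. Setdb1, the histone methyltransferase that Trim28 recruits, was at 0.10 (adjusted p = 0.544 by edgeR) and Chd4 at 0.09 (adjusted p = 0.413). Over all doses none was called in proton mice, where 1.6% and 0.16% of all genes tested were called. At an unadjusted p under 0.05 there were 8 of the 33 in proton mice, beside 1745 of the 13124 genes tested. In gamma mice 3 were higher (9.09%) and 1 was lower (3.03%), where 5.44% and 2.21% of all genes tested were called. After the GC and length correction Gatad2b alone was called in gamma mice.

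Other zinc finger families, at the same minimum, gave 6 higher and 2 lower of 28 Zbtb genes (median 0.20), 3 and 1 of 12 Klf genes (0.04), 1 and 1 of 5 Zkscan genes (0.13) and 1 and 0 of 4 Zscan genes (0.35). Of all genes at that minimum, 14.9% were higher and 9.57% were lower. After the GC and length correction 0 Zbtb genes were higher and 2 were lower (median 0.04). For Klf genes the corrected counts were 2 and 0 (0.05), for Zkscan genes 1 and 0 (0.06) and for Zscan genes 0 and 0 (0.29). Of the 9817 genes at that minimum, 298 were then higher and 276 were lower. Whether the numbered Zfp genes differ from these families was not tested.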

How the data were processed

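The authors made stranded polyA libraries from the aorta of 20 mice, converted reads with CASAVA 1.8.1, aligned them to mm9 with STAR 2.5.2a and brought all libraries to 1 depth by resampling in PORT, per the labels and the study's methods. They deposited whole-number counts of sense reads per gene, which are used here. All 21078 gene identifiers were found in GENCODE M1 (NCBIM37), from which coordinates, transcript length and GC content (longest protein-coding transcript), fingers (most in any transcript) and KRAB motifs (in any transcript) were taken. The intervals of the table extend 202 bases beyond those of the annotation at each end.

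The test covered genes averaging 5 counts or more and was run in edgeR 4.0.16 with TMM normalization and robust quasi-likelihood fits, Benjamini-Hochberg adjusted with a threshold of 0.1. The statistical scripts were tested on simulated data. The GC and length correction fitted natural splines to each library's deviations over genes averaging 50 counts or more. The alternatives were DESeq2 1.42.0, no TMM, other count minimums, dose as a rank or as log2(dose + 1), an exact permutation test of Spearman's rank correlation, other contrasts, leaving out each mouse and a pseudocount of 10. R 4.3.3 was used, and Python 3.11.15 with pandas 2.3.3, scipy 1.17.1 and matplotlib 3.10.9.

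The members, the gene lists and the division between 125 and 150 cGy were chosen with earlier results of these data known. Named genes are the 3 rising and 3 falling members with the smallest p in each comparison, the 3 with the lowest p when slopes were compared between types, members of the study's supplementary lists, a list of 43 genes with known roles, those next to the count minimum and the 3 highest per kilobase. Antisense and intron reads were not analysed here.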

Additional observations from a re-analysis of the deposited data

Results flagged for a closer look

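Of 58 items, the member mean and 57 named genes, each looked at in the 10 proton and the 10 gamma mice by Dixon's test on log2(count + 1), 6 of 116 groups held a mouse far from the others, where chance gives about 1 in 20. The proton mouse at 5 cGy had the highest Zfp703, at 9.90 (954 counts), with the next at 8.85, and the highest Zfp503, at 8.26 (306 counts), with the next at 6.55; these are the NET family genes. The other 4 were Zfp747 at 100 cGy in proton mice (6.23, the highest), Zfp260 at 75 cGy in proton mice (8.85, the lowest), Zfp706 at 150 cGy in proton mice (8.97, the lowest) and Zfp830 at 200 cGy in gamma mice (6.74, the lowest).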

How the results depend on the processing

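At the high-dose difference (55 higher and 9 lower), the counts of members were 32 and 5 with DESeq2, 10 and 4 after the GC and length correction, 12 and 2 in proton mice alone and 8 and 1 in gamma mice alone, the last pair chosen after seeing the data. With 150 against 125 cGy only, 27 were higher. With a step term beside the slopes 4 were lower, and with 150 and 200 against 0 to 125 cGy, chosen after seeing the data, 15 were lower. The proton slope (1 higher) gave 3 with DESeq2 and 0 with no filter, after the GC and length correction, with dose as a rank or as log2, and by the exact permutation test of Spearman's rank correlation. The gamma slope (10 higher, 3 lower) gave 4 higher with no filter, 2 after the correction, 2 with dose as a rank, and 6 lower with DESeq2 and 5 lower with a mean count of at least 50. It gave 0 and 0 with dose as log2 and 1 and 1 by the exact test. Without TMM no count moved by over 1.5 times. Leaving out each mouse gave 32 to 47 higher and 4 to 10 lower at the high-dose difference, the fewest without the proton mouse at 200 cGy (32), the gamma mouse at 100 cGy (34) and the proton mouse at 125 cGy (4 lower). It gave 0 to 8 higher for the proton slope, with 8 also without the proton mouse at 125 cGy, and 0 to 17 higher and 0 to 6 lower for the gamma slope, with 17 and 6 without the proton mouse at 75 cGy. The calls over 0 to 125 cGy and of the slope difference stayed at 0 throughout.

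For the member mean, the GC and length correction gave 0.0083 in proton and 0.107 in gamma mice for 150 and 200 less 100 and 125 cGy, -0.0213 and 0.135 for 150 less 125 cGy, and 0.0229 for the gamma slope. The median over members gave -0.0033 and 0.0258, -0.0354 and 0.0341, and 0.0859 for the gamma slope over 0 to 125 cGy, which was -0.0333 on log2 TMM-scaled counts. Leaving out each mouse gave a proton slope of 0.0089 to 0.0563, a gamma slope of 0.0389 to 0.0683, a proton slope over 0 to 125 cGy of -0.0785 to -0.0049, a gamma slope over 0 to 125 cGy of -0.0093 to 0.0074, and a difference of 0.0492 to 0.116 in proton and 0.119 to 0.174 in gamma mice. Of 28 calls of named genes, 6 held after the GC and length correction and 22 with DESeq2, and 2 reversed, Zfp148 (-0.0023) and Zfp451 (-0.10) at the high doses. Zfp445, Zfp568 and Zfp809 kept their high-dose call under every alternative run. The cause of these changes was not tested. With 1 mouse per dose and type, a single mouse cannot be told from its dose.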
